A study of Rattus norvegicus with 30 samples.

Results

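The comparison set rat embryonic fibroblasts kept without serum for 4 days against the same line kept without serum for 3 days. It used 6 of the 30 libraries of a starvation course, 3 biological replicates at day 3 and 3 at day 4. The cells are the REF line, labelled as untransformed and with no genetic change or drug named in the labels, so duration without serum is the only labelled difference. The other libraries are an unstarved control and days 2, 6, 8, 10, 12, 14 and 16, also with 3 replicates each, and they entered the fit to share 1 estimate of the spread between replicates. Values are FPKM, a read coverage corrected for transcript length and for the mapped total, which the authors deposited for 17353 gene symbols. A mean of at least 1 FPKM over the 30 libraries was reached by 8940 symbols, and these were tested together on the log2(FPKM + 1) scale. A gene is named called where its Benjamini-Hochberg adjusted p in limma was under 0.05.

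Fibroblasts deprived of serum leave the cell cycle and enter quiescence, a reversible arrest, and the series asks how quiescence changes with its duration. Several programs that the fibroblast runs outside the cell cycle bear on this step. Glycolysis turns glucose into pyruvate and lactate, and most of its enzymes, with carbonic anhydrase 9 and vascular endothelial growth factor, are induced by hypoxia-inducible factor. Fibroblasts secrete collagen, which needs folding in the endoplasmic reticulum (ER) by chaperones and prolyl hydroxylases, and matrix proteases that remodel it. The factor ATF4 induces enzymes that make serine, asparagine and one-carbon units when amino acids are short or the ER is loaded.

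The count of reads behind each library is unknown, so counting error cannot be given and the precision rests on the replicates. The deposited values of the 6 libraries summed to between 582501 and 753992 FPKM, and 8767 to 8832 symbols reached 1 FPKM in each. Pearson correlations of log2 values were 0.9836 to 0.9876 within day 3, 0.9836 to 0.9895 within day 4 and 0.9761 to 0.9886 between the days. Short RNA genes took 6.92% of the FPKM in day 3 replicate 3 and 8.67% in day 4 replicate 3, against 0.292% to 2.17% in the other 4 libraries. On the first principal component of the deviations from group means, replicate 1 stood on the opposite side from replicates 2 and 3 in all 10 groups, at -9.20 at day 3 and -17.13 at day 4, so counts are also given without replicate 1 in every group. Of 12 fibroblast markers 7 were kept. Col1a2 and Fap were listed at 0 in all 6 libraries while Col1a1 stood at 2651 to 4322 FPKM, so a 0 in this table may be a failed estimate. Other markers of this list were low without being 0 throughout. Thy1 was at most 0.0978 FPKM and Pdgfra at 0.904 to 1.517. Dcn was at 1.016 to 1.569 FPKM at day 3 and 0.1284 to 0.4558 at day 4. Lum was at 1.965 to 2.978 FPKM at day 3 and 0.669 to 1.164 at day 4. Vim stood at 4939 to 5644 FPKM. All 12 macrophage and all 10 endothelial markers were under 1 FPKM in all 6 libraries, with sums of at most 1.11 and 0.311 FPKM. Of 10 epithelial markers 9 were at 0 in all 6 libraries, and Krt8 stood at 23.67 to 29.39 FPKM. Of 11 chondrocyte and osteoblast markers 9 were under 1 FPKM in all 6 libraries. Sox9, of that list, stood at 21.63 to 21.74 FPKM at day 3 and 27.79 to 35.67 at day 4 and was not called. Of 23 skeletal muscle markers in the table, 10 were kept, with summed levels of 466.5 to 569.8 FPKM at day 3 and 438.3 to 526.9 at day 4.

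Between day 3 and day 4, 303 of the 8940 genes were called (3.39%). Of these, 149 were higher at day 4 (1.67%) and 154 were lower (1.72%). The changes were small in size: 5 of the higher and 9 of the lower genes moved at least 2-fold, and the median fold was 1.37 among the higher and 1.46 among the lower genes. The 3 libraries of one day lay wholly above the 3 of the other for 145 of the 149 and 153 of the 154 called genes, and for 1713 of all genes tested (19.2%), with day 4 above for 10.5% and below for 8.7%. Across all genes the median change was 0.01 on the log2 scale, with quartiles at -0.12 and 0.12. Upper-quartile scaling shifted the balance to 140 higher and 224 lower genes. The number of calls leaned on single libraries. Genes higher at day 4 numbered 94 without day 3 replicate 1, 89 without day 3 replicate 2, 97 without day 4 replicate 1 and 83 without day 4 replicate 3. Genes lower at day 4 numbered 77 without day 3 replicate 2 and 97 without day 3 replicate 3. Without replicate 1 in every group there were 105 higher (1.17%) and 153 lower genes (1.71%). Without replicate 2 in every group they numbered 41 and 35, and without replicate 3 33 and 40. With the spread estimated from the 6 libraries alone, the counts were 31 and 38. These are bulk samples, in which a change in the share of cells that express a gene and a change in RNA per cell cannot be told apart.

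**Figure D1:**
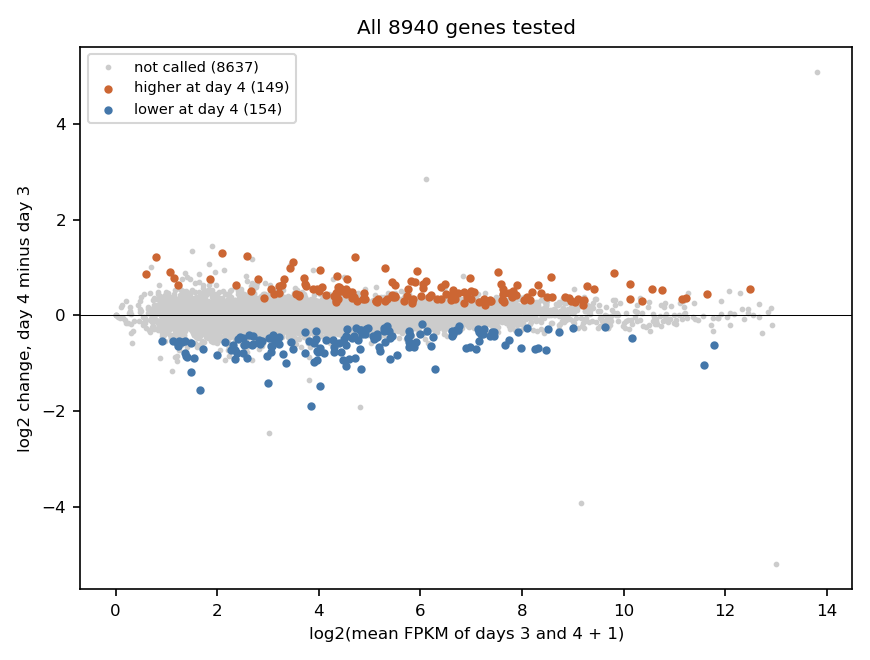
Log2 change from day 3 to day 4 (vertical axis) against the level of each of the 8940 genes (horizontal axis, log2 of the mean FPKM of both days plus 1), with the 149 higher and 154 lower genes in color. Most called genes lie within 1 log2 unit of no change, and Mmp2 is the called gene farthest from it, at -1.89.

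The 10 largest rises by the naming rule were Cyp3a9, Pfkl, Pdk1, Higd1a, Lgals9, Plac9, Car9, Ldha, Fam101b and Pgk1, of which Pfkl, Ldha and Pgk1 are glycolytic enzymes and Pdk1, Higd1a and Car9 belong to the list of hypoxia-inducible genes. The 10 largest falls were Mmp2, Aldh3a1, Pycr1, Tnnt2, Igfbp4, Olfml3, Col3a1, Plat, Olfm1 and Nrep, among them a fibrillar collagen, a matrix protease and a plasminogen activator. Cyp3a9, a cytochrome P450, read 1.99, 2.77 and 2.95 FPKM at day 3 and 6.77, 6.68 and 9.01 FPKM at day 4. This was the largest rise by the naming rule, 1.25 ± 0.15 (log2, SE, adjusted p = 6.99e-06), with no overlap between the days. Lgals9, the carbohydrate-binding protein galectin 9, read 11.2, 9.31 and 9.23 FPKM at day 3 and 22.5, 14.5 and 24.4 FPKM at day 4, so the rise was smaller in replicate 2. Aldh3a1, an aldehyde dehydrogenase, read 16.2, 31.4 and 21.1 FPKM at day 3 and 9.5, 5.83 and 7.19 FPKM at day 4, a fall of 2.76-fold (log2 -1.46 ± 0.21, adjusted p = 5.82e-05) that was not called with a pseudocount of 0.1. Tnnt2, cardiac troponin T, read 96.0, 113 and 111 FPKM at day 3 and 54.4, 48.9 and 42.0 FPKM at day 4. Its level had been 141 ± 21.3 FPKM (SD, n = 3) at day 2, so the fall at day 4 continued an earlier one in the means. Plac9, Fam101b and Nrep each lost its call without day 3 replicate 1 and without day 3 replicate 2, among other libraries.

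**Figure D2:**
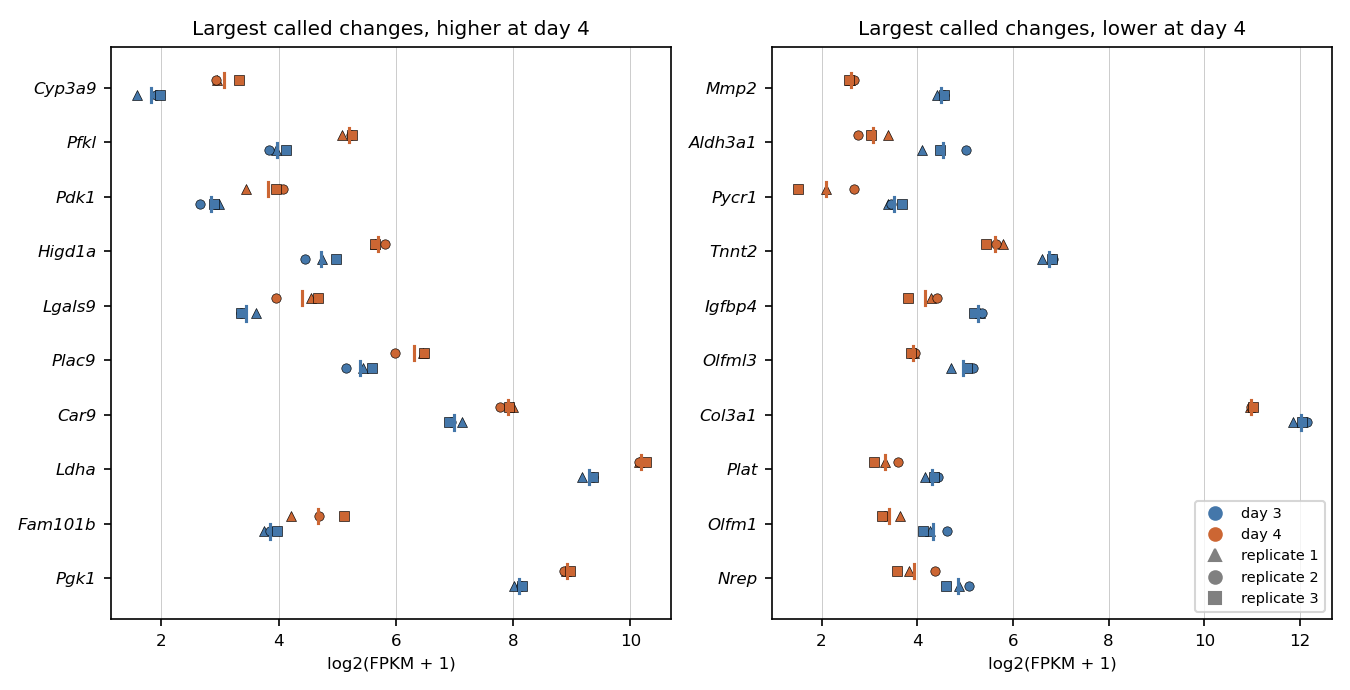
The 10 largest called rises (left) and falls (right), as log2(FPKM + 1) in each library on the horizontal axis, with day 3 in blue, day 4 in orange, marker shape for the replicate and a bar for the mean. The days do not overlap for any of the 20 genes, which the naming rule required.

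Most glycolytic genes rose. Of 16 kept members, 10 were called higher, 6 were not called and 0 were lower, against 1.67% of all genes higher. The median change was 0.59, against 0.01 for all genes tested. The same count of 10 was found without replicate 1 in every group, and leaving out any single library gave 9 or 10. Pfkl, the liver-type phosphofructokinase at the committed step, read 14.6, 13.3 and 16.5 FPKM at day 3 and 33.0, 36.6 and 37.3 FPKM at day 4. Every day 4 library lay far above every day 3 library, and the change was 1.22 ± 0.11 (log2, SE, adjusted p = 7.64e-08). Ldha, which reduces pyruvate to lactate, went from 575, 656 and 657 FPKM to 1129, 1130 and 1225 FPKM, a rise of 0.88 ± 0.09 (adjusted p = 7.7e-07). Pgk1, an enzyme that forms ATP in the pathway, went from 258, 281 and 284 FPKM to 476, 467 and 503 FPKM (0.81 ± 0.08, adjusted p = 2.56e-07). Pgam1, the mutase that follows it, went from 246, 248 and 254 FPKM to 390, 372 and 404 FPKM (0.64 ± 0.06, adjusted p = 7.64e-08). Within each of these genes the 3 replicates of a day lay close together relative to the step. Replication-dependent histones had a higher list median, 0.72, with 2 of 10 kept genes called higher (20%). Their list mean at day 4 stood 0.43, 0.35 and 1.46 above the day 3 mean in replicates 1, 2 and 3.

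The other called members stretch from glucose entry to pyruvate. Slc2a1, the glucose transporter GLUT1, read 8.64, 9.78 and 9.5 FPKM at day 3 and 13.5, 16.4 and 15.9 FPKM at day 4 (adjusted p = 0.0114). Gpi rose from 138, 155 and 151 FPKM to 239, 226 and 232 FPKM, and Aldoa from 859, 864 and 888 FPKM to 1462, 1296 and 1370 FPKM. Gapdh, often used as a reference gene, rose from 1344, 1439 and 1494 FPKM to 2132, 1940 and 2101 FPKM. Eno1 and Pkm rose by 0.62 and 0.56. The 6 members that were not called are the hexokinases Hk1 (0.05) and Hk2 (0.28), the muscle and platelet phosphofructokinases Pfkm (-0.14) and Pfkp (0.24), and the regulatory enzymes Pfkfb3 (0.13) and Pfkfb4 (-0.48). Among the 3 phosphofructokinase genes, then, the liver form alone was called. That their changes differ from that of Pfkl was not tested.

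The rise began at this step. Averaged over the 16 genes, the list stood 0.02 ± 0.07 above day 3 at day 2 (log2, SD over 3 libraries), 0.46 ± 0.04 at day 4, 0.73 ± 0.12 at day 6 and 1.07 ± 0.11 at day 10, its highest group mean. Unstarved cells stood at 0.40 ± 0.03, so day 2 and day 3 were the lowest groups. Tested gene by gene, the step from day 3 to day 4 exceeded that from day 2 to day 3 for 9 of the 16 genes, against 1.51% of all genes, with a median difference between the steps of 0.54. Day 3 enters that difference with both steps, so a value low at day 3 alone would also give it.

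Of 21 kept members of the hypoxia-inducible list, 9 were called higher, 12 were not called and 0 were lower (1.67% of all genes higher), with a median change of 0.40. Counts ran from 7 to 9 with 1 library left out and were 9 without replicate 1, but 4 with the spread taken from the 6 libraries alone. Car9, the membrane carbonic anhydrase that handles acid at the cell surface, read 140, 122 and 119 FPKM at day 3 and 255, 220 and 244 FPKM at day 4. The lowest day 4 library was well above the highest at day 3, a change of 0.91 ± 0.09 (log2, SE, adjusted p = 3.5e-07). Higd1a, a mitochondrial inner membrane protein, read 25.8, 20.9 and 30.5 FPKM at day 3 and 49.3, 55.2 and 49.1 FPKM at day 4 (0.98 ± 0.13, adjusted p = 3.19e-05). Pdk1, the kinase that shuts pyruvate dehydrogenase, read 6.90, 5.32 and 6.47 FPKM at day 3 and 9.91, 15.9 and 14.5 FPKM at day 4, where replicate 1 was the lowest (0.98 ± 0.15, adjusted p = 0.000173). Its call was lost without replicate 2 in every group.

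Bnip3, a receptor for mitochondrial autophagy, rose from 37.1, 31.4 and 35.2 FPKM to 53.4, 54.8 and 55.4 FPKM (0.64 ± 0.08, adjusted p = 2.14e-05). P4ha1, a catalytic subunit of collagen prolyl hydroxylase, rose from 156, 155 and 165 FPKM to 218, 236 and 246 FPKM (0.55 ± 0.08, adjusted p = 0.000141), while most collagen genes fell at the same step. Vegfa, the angiogenic growth factor, read 223, 189 and 194 FPKM at day 3 and 272, 267 and 269 FPKM at day 4, a smaller rise of 0.42 ± 0.10 (adjusted p = 0.0211). Fam162a (0.69), Bhlhe40 (0.64) and Adm (0.40) made up the 9. Hif1a, which encodes the oxygen-regulated subunit of the factor itself, read 24.8, 26.4 and 24.2 FPKM at day 3 and 21.6, 27.7 and 28.4 FPKM at day 4 and was not called (adjusted p = 0.931). Lox (-0.35) and Mxi1 (-0.09), which had negative changes, were not called either.

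The mean of the list at day 2 lay between those of unstarved cells and day 3. It stood at -1.0 ± 0.04 in unstarved cells and -0.19 ± 0.05 at day 2, relative to day 3, and at 0.36 ± 0.07 at day 4 and 1.13 ± 0.03 at day 10. Among its members, Vegfa was at 19.2 ± 1.20 FPKM unstarved, 100 ± 9.98 at day 2 and 202 ± 18.4 at day 3, whereas the mean of Bhlhe40 was 16.3 ± 2.32 FPKM at day 2 and 6.58 ± 0.636 at day 3. Of the 21 genes, 3 had a step to day 4 that exceeded the preceding step and 1 a step that fell short of it (1.51% and 1.68% of all genes).

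Promoters of these lists are shown because most or many of their members were called in 1 direction and because hypoxia-inducible factor is known to bind a short core, ACGTG. The windows are the 250 bases before to 50 bases after the start of the gene in RefSeq on GRCr8, and 7408 of the 8940 genes had one. The core was present on either strand in 13 of 17 windows of the hypoxia-inducible list (76.5%), in 7 of 15 of the glycolysis list (46.7%), in 0 of 8 of the collagens, in 8 of 19 of the ER list (42.1%), in 7 of 22 of the ATF4 list (31.8%) and in 2042 of all 7408 (27.6%). It overlaps the E-box CACGTG, which holds it on both strands and occurred in 10.0% of all windows. The shares by list cover all members with a window, called or not. In the TGF-beta and BMP list the core was in 4 of 16 windows (25%). Other motifs were searched as well. The ATF4 composite TGATGCAA was in 1 of 22 windows of the ATF4 list (4.55%) and in 0.567% of all windows. The CRE motif TGACGTCA was in 0 of 19 windows of the ER list and in 3.58% of all windows. Among called glycolytic genes, a core wholly before the start was found in Gapdh, Ldha, Pgam1 and Slc2a1. Among called hypoxia-inducible genes it was found in Bhlhe40, Bnip3, Fam162a and Higd1a. The other called members of both lists had no such match or no window. A match is a description of letters only. Stretches of 5 called genes follow, each of 65 bases before the start, 5′ to 3′ on the gene's strand, with the core in capitals, ACGTG on the gene's strand and CACGT on the other. Ldha is at chr1:106507989-106508053 (+), Pgam1 at chr1:250672981-250673045 (+), Slc2a1 at chr5:138002441-138002505 (+), Bnip3 at chr1:203155027-203155091 (-) and Bhlhe40 at chr4:143174271-143174335 (+).
Ldha: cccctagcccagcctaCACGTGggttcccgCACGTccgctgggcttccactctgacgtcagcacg
Pgam1: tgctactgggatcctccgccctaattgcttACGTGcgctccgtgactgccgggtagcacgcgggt
Slc2a1: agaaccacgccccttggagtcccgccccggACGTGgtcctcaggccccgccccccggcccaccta
Bnip3: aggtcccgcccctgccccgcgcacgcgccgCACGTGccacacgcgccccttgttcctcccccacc
Bhlhe40: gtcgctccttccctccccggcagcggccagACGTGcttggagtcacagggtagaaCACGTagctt
Within the printed stretches, Ldha and Bnip3 hold the full E-box, and Ldha and Bhlhe40 a second core. Outside its printed stretch, Bhlhe40 also holds a full E-box, 220 bases before the start.

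**Figure D3:**
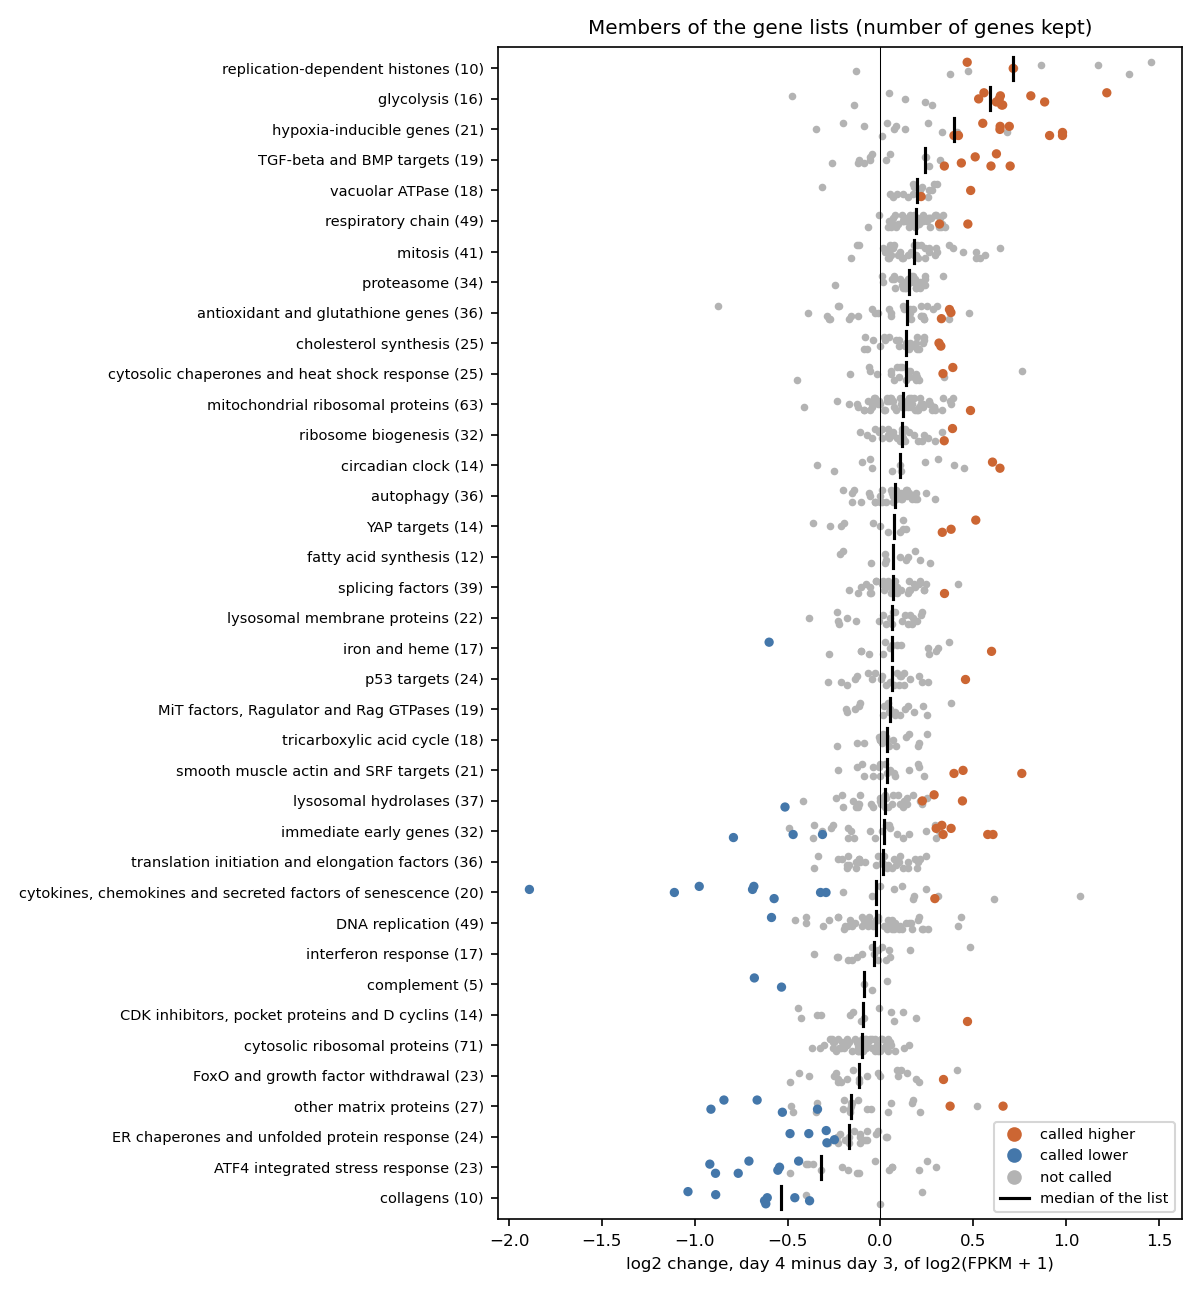
Log2 change from day 3 to day 4 (horizontal axis) of each kept member of the gene lists (vertical axis, number of genes kept in brackets), with genes called higher in orange, called lower in blue, not called in grey and a black bar at the list's median. Glycolysis and the hypoxia-inducible list hold 10 and 9 called rises and no called fall, and collagens hold 7 called falls and no called rise.

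Most collagen genes fell. Of 10 kept members 7 were called lower and 0 higher, against 1.72% of all genes lower, and the median change was -0.54. The count was 6 or 7 with any 1 library left out, 5 without replicate 1, and 2 with the spread taken from the 6 libraries alone. Col3a1, a chain of fibrillar type III collagen, read 3725, 4503 and 4232 FPKM at day 3 and 1982, 2015 and 2058 FPKM at day 4. The day 4 libraries lay close together and far under day 3, a fall of 2.05-fold (log2 -1.04 ± 0.07, SE, adjusted p = 2.79e-09). Col1a1, the type I chain, read 4113, 4288 and 4322 FPKM at day 3 and 2651, 2896 and 2795 FPKM at day 4 (-0.61 ± 0.13, adjusted p = 0.00534), and lost its call under quantile normalization and without replicate 2 or replicate 3 in every group. Col5a1, a minor fibrillar chain, fell from 234, 255 and 247 FPKM to 139, 175 and 165 FPKM (-0.62 ± 0.10, adjusted p = 0.000212). Its partner Col5a2 fell from 1289, 1372 and 1352 FPKM to 918, 978 and 1020 FPKM (-0.46 ± 0.07, adjusted p = 0.000153).

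Col18a1, the source of endostatin, fell from 156, 167 and 168 FPKM to 127, 119 and 130 FPKM (-0.38 ± 0.06, adjusted p = 0.000364). Col27a1 (-0.89) and Col16a1 (-0.62) fell from lower levels, with day 3 means of 2.80 and 5.02 FPKM. The basement membrane chain Col4a1 read 199, 194 and 188 FPKM at day 3 and 183, 196 and 203 FPKM at day 4, with a change of 0.00 and an SE of 0.10. Col8a1 ranged from 185 to 215 FPKM at day 3 and from 175 to 297 FPKM at day 4 and was not called. Over the course the 10 collagens stood 0.38 ± 0.10 above day 3 at day 2, at -0.48 ± 0.06 at day 4, at -0.93 ± 0.07 at day 6 and at -1.52 ± 0.14 at day 14, and at -1.21 ± 0.05 in unstarved cells. The decline was thus under way before day 3 in the means, and 1 of the 10 had a step to day 4 more negative than the preceding step, Col5a2 (-0.44, adjusted p = 0.0477).

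A minority of the other secreted matrix and remodeling genes were called lower. Mmp2, the gelatinase that cleaves collagen fragments, read 20.2, 22.5 and 22.5 FPKM at day 3 and 5.02, 5.42 and 4.95 FPKM at day 4. It had the largest called change of all genes, -1.89 ± 0.15 (log2, SE, adjusted p = 9.08e-09), or 3.71-fold. Its mean was 34.7 ± 3.25 FPKM on day 2 and 0.885 ± 0.231 at day 6 (SD, n = 3), and its step to day 4 was more negative than the preceding one (-1.24, adjusted p = 0.00484). Plat, tissue plasminogen activator, fell from 16.9, 20.6 and 19.3 FPKM to 8.99, 11.1 and 7.54 FPKM (-0.98 ± 0.12, adjusted p = 6.81e-06). Plau, the urokinase-type activator, fell from 16.9, 18.1 and 15.5 FPKM to 9.64, 12.5 and 10.9 FPKM (adjusted p = 0.015). Mmp14, the membrane protease that activates Mmp2 protein, fell by 0.29.

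These proteases belong to a list of secreted factors named for senescent cells, of which 8 of 20 kept genes were called lower and 1 higher (1.72% and 1.67% of all genes), with a median of -0.02. Without day 3 replicate 2, or without day 4 replicate 3, 5 were lower. Igfbp4, a binding protein that restrains insulin-like growth factor, read 38.6, 39.7 and 35.2 FPKM at day 3 and 18.5, 20.3 and 12.9 FPKM at day 4 (-1.11 ± 0.16, adjusted p = 5.12e-05). Cxcl12, a chemokine of fibroblasts, fell from 139, 155 and 145 FPKM to 92.0, 95.0 and 86.1 FPKM (-0.68 ± 0.08, adjusted p = 7.8e-06). Igfbp6 (-0.69) and Csf1 (-0.32) made up the 8, and Icam1, an adhesion molecule for leukocytes, was the 1 that rose (0.29), a call lost without day 3 replicate 1, day 3 replicate 2 or day 4 replicate 3. Interleukin 6 (Il6, 0.61) and Lif (1.08) had positive changes that were not called.

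Among 27 other matrix genes, 5 were called lower and 2 higher (1.72% and 1.67% of all genes), with a median of -0.16. The lower count was 2 without day 3 replicate 2 or day 4 replicate 3, and 3 without day 3 replicate 1, day 3 replicate 3 or day 4 replicate 1. Vcan, the large proteoglycan versican, fell from 50.3, 57.9 and 53.9 FPKM to 26.2, 30.3 and 28.2 FPKM (-0.91 ± 0.11, adjusted p = 5.71e-06). Postn, the matricellular protein periostin, fell from 137, 166 and 156 FPKM to 95.3, 87.0 and 106 FPKM (-0.66 ± 0.11, adjusted p = 0.000413), but was at 445 ± 49.9 FPKM by day 10. Spp1, osteopontin, rose from 52.5, 48.1 and 50.6 FPKM to 84.6, 83.4 and 73.2 FPKM (0.66 ± 0.10, adjusted p = 9.85e-05). P4ha3, another prolyl hydroxylase subunit, rose from 232, 240 and 242 FPKM to 312, 293 and 323 FPKM. Fn1, fibronectin, ranged from 3332 to 3671 FPKM at day 3 and from 4226 to 6074 FPKM at day 4, a change of 0.52 that was not called (adjusted p = 0.0918).

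Some genes known to be induced by ATF4 fell. Of 23 kept members, 7 were called lower and 0 higher (1.72% and 1.67% of all genes), with a median of -0.32. The count was 5 to 8 with 1 library left out and 8 without replicate 1. The 7 are Psat1, Pck2, Asns, Mthfd2, Phgdh, Vldlr and Slc7a5, which, apart from the lipoprotein receptor Vldlr and the carboxykinase Pck2, make or carry amino acids or one-carbon units. Asns, asparagine synthetase, read 25.6, 27.3 and 25.7 FPKM at day 3 and 17.4, 14.7 and 13.2 FPKM at day 4 (log2 -0.77 ± 0.08, SE, adjusted p = 1.18e-06). Pck2, mitochondrial phosphoenolpyruvate carboxykinase, fell from 32.6, 31.7 and 35.3 FPKM to 18.5, 19.0 and 15.1 FPKM (-0.89 ± 0.10, adjusted p = 1.77e-06). Psat1, a serine synthesis enzyme, fell from 26.4, 32.0 and 33.0 FPKM to 13.6, 18.4 and 15.0 FPKM (-0.92 ± 0.15, adjusted p = 0.000219). All 3 genes had their highest day 4 library under their lowest day 3 library.

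Mthfd2, of mitochondrial folate metabolism, fell from 31.1, 35.9 and 34.6 FPKM to 20.2, 21.4 and 19.4 FPKM (-0.71 ± 0.10, adjusted p = 7e-05). Phgdh, the entry enzyme of serine synthesis, fell from 37.1, 50.8 and 51.3 FPKM to 30.4, 34.4 and 28.4 FPKM (-0.55 ± 0.12, adjusted p = 0.00831). Pycr1, which makes proline, was outside the list and had the third largest fall by the naming rule. It read 9.45, 9.96 and 11.8 FPKM at day 3 and 3.26, 5.42 and 1.83 FPKM at day 4 (-1.42 ± 0.25, adjusted p = 0.000961), with a wide spread at day 4. Among the 16 members not called were some tied to cell stress: Atf4 (-0.20), Ddit3 (0.06), Trib3 (-0.32), Chac1 (-0.11) and Atf3 (-0.18). Trib3 stood at the median of the list, and the other members not called are not named. That the named stress genes changed less than the synthesis genes was not tested. Relative to day 3, the list averaged 0.10 ± 0.03 on day 2, -0.28 ± 0.03 on day 4 and -0.07 ± 0.05 on day 6, so day 4 was lower than the groups on both sides. For 6 of the 23 genes day 4 lay under the straight line between days 3 and 6 (0.649% of all genes). The list mean does not describe every member. From day 2 to day 6, 7 of the 23 were called higher and 9 lower. The members called lower at day 4 were all among those 9, with changes from -1.40 (Slc7a5) to -0.30 (Asns).

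Of 24 kept ER chaperones and genes of the unfolded protein response, 5 were called lower and 0 higher (1.72% and 1.67% of all genes), 22 had negative changes, and the median was -0.17. The count was 1 without day 3 replicate 2, 3 without day 3 replicate 3 and 0 with the spread taken from the 6 libraries alone. Pdia4, a disulfide isomerase, read 164, 164 and 170 FPKM at day 3 and 133, 141 and 134 FPKM at day 4 (-0.29 ± 0.05, adjusted p = 0.00164). Xbp1, a transcription factor of the response, fell from 65.6, 79.9 and 68.8 FPKM to 54.1, 54.5 and 54.1 FPKM (-0.39 ± 0.08, adjusted p = 0.00395), a call lost without day 3 replicate 2. Calr, the lectin chaperone calreticulin, fell from 852, 859 and 862 FPKM to 748, 728 and 692 FPKM (-0.25 ± 0.06, adjusted p = 0.013), a call lost without day 3 replicate 2 or day 4 replicate 3 and after rescaling to equal sums. Hsp90b1, or GRP94, fell by 0.29 ± 0.07 (adjusted p = 0.015), lost without day 3 replicate 2, day 3 replicate 3 or day 4 replicate 1, and Creld2 fell by 0.49. Hspa5, the chaperone BiP, read 338, 365 and 386 FPKM at day 3 and 290, 294 and 310 FPKM at day 4 and did not pass (adjusted p = 0.0586).

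Day 3 was a local high for this list. Its mean stood at -0.27 ± 0.08 at day 2, -0.17 ± 0.04 at day 4 and -0.02 ± 0.05 at day 6, relative to day 3. The step to day 4 was more negative than the preceding step for 8 of the 24 genes (1.68% of all genes), Hspa5 among them (-0.82, adjusted p = 0.000884). For 4 of the 24 genes, Hspa5 included (-0.35, adjusted p = 0.0113), day 4 also lay under the line between days 3 and 6 (0.649% of all genes).

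Targets and ligands of the TGF-beta and BMP pathways rose in part. Of 19 kept genes 6 were called higher and 0 lower (1.67% and 1.72% of all genes), with a median of 0.24. The count was 3 without day 3 replicate 1, without day 4 replicate 3, after rescaling to equal sums, or with the spread taken from the 6 libraries alone. It was 4 without replicate 1 in every group, 2 without replicate 2 and 1 without replicate 3. Among ligands, Bmp4 rose from 64.2, 69.7 and 65.9 FPKM to 96.9, 98.9 and 108 FPKM (0.60 ± 0.10, adjusted p = 0.000238), with no overlap. Tgfb3 rose from 988, 924 and 1048 FPKM to 1288, 1110 and 1369 FPKM (0.34 ± 0.09, adjusted p = 0.0271), whereas Tgfb1 (-0.05) and Tgfb2 (0.05) were not called. Among targets, Pmepa1, a feedback inhibitor of TGF-beta signaling, rose from 183, 193 and 186 FPKM to 265, 298 and 305 FPKM (0.62 ± 0.09, adjusted p = 8.93e-05).

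Id4, a member of the Id family that blocks basic helix-loop-helix factors, rose from 53.2, 42.7 and 38.7 FPKM to 72.7, 69.5 and 76.3 FPKM (0.70 ± 0.12, adjusted p = 0.000913). Its relative Id2 rose by 0.51, while Id1 (0.32) and Id3 (-0.05) were not called. Smad7, the inhibitory Smad, read 9.51, 8.99 and 9.65 FPKM at day 3 and 13.2, 12.7 and 13.2 FPKM at day 4 (0.44 ± 0.11, adjusted p = 0.0211), and lost its call in each of 5 single-library omissions. Hes1, a target of Notch that is also on this list, read 15.1, 15.9 and 19.5 FPKM at day 3 and 13.4, 15.2 and 13 FPKM at day 4 and was not called.

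**Figure D4:**
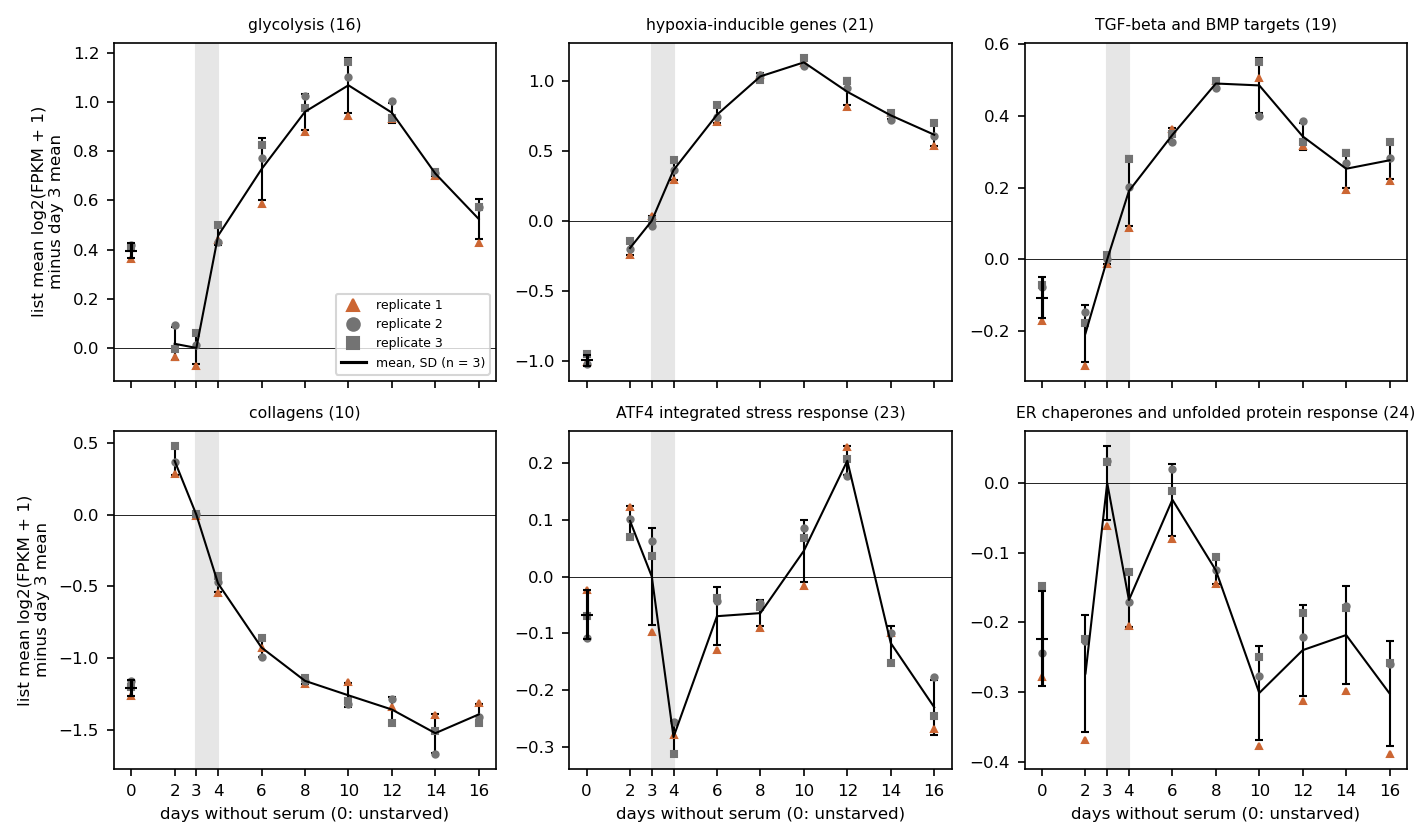
Average level of 6 lists as log2(FPKM + 1), relative to the day 3 mean (vertical axis) against days without serum (horizontal axis, 0 for unstarved cells), with the 3 replicates as points, replicate 1 in orange, the group mean and SD as a line, and the step from day 3 to day 4 shaded. Glycolysis is flat from day 2 to day 3 and at 0.46 at day 4, collagens fall through the shaded step from 0.38 at day 2 to -0.93 at day 6, and the ATF4 list is lower at day 4, at -0.28, than at days 3 and 6.

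Some growth factor response genes were called in each direction. Of 32 immediate early and feedback genes, 6 were called higher and 3 lower (1.67% and 1.72% of all genes), with a median of 0.02, and these counts changed with single libraries: the higher count was 1 without day 3 replicate 2 and 2 without day 4 replicate 1 or day 4 replicate 3, and the lower count was 1 without day 3 replicate 1 or day 4 replicate 2. Both were 0 with the spread taken from the 6 libraries alone. Dusp6, a phosphatase that limits ERK, read 10.4, 8.52 and 10.0 FPKM at day 3 and 15.3, 12.0 and 19.0 FPKM at day 4 (0.61 ± 0.14, adjusted p = 0.0114, lost without day 3 replicate 2 or day 4 replicate 3). Dusp1, a related phosphatase, rose from 245, 218 and 228 FPKM to 315, 275 and 281 FPKM (0.33 ± 0.06, adjusted p = 0.00233), a call lost under 3 of the 4 other scalings. Nr4a3, an orphan nuclear receptor, fell from 2.50, 2.21 and 2.15 FPKM to 0.757, 1.05 and 0.893 FPKM (-0.79 ± 0.16, adjusted p = 0.00473). Its call was lost without replicate 1, replicate 2 or replicate 3 in every group. Myc (0.25), Jun (0.05) and Egr1 (-0.32) were not called. Of the clock genes, Nr1d1, the repressor Rev-erb alpha, rose from 6.57, 6.29 and 6.38 FPKM to 10.6, 9.31 and 10.9 FPKM (0.60 ± 0.10, adjusted p = 0.000648), and with Bhlhe40 it made 2 of 14 called higher (1.67% of all genes).

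The series is titled after the lysosome, and lysosomal and autophagy genes were counted in 4 lists, beside 1.67% of all genes called higher and 1.72% lower. Of 37 kept hydrolase genes 3 were called higher (8.11%) and 1 lower (2.70%), of 22 membrane protein genes 0 in either direction, of 18 vacuolar ATPase genes 2 higher (11.1%), and of 36 autophagy genes 0. The higher counts of the hydrolases and of the vacuolar ATPase were each 1 without day 3 replicate 1, day 3 replicate 3, day 4 replicate 1 or day 4 replicate 3, and both were 0 with the spread taken from the 6 libraries alone. At an unadjusted p under 0.05 there were 1342 calls among all genes tested by limma. Lipa, lysosomal acid lipase, fell from 29.6, 31.4 and 32.1 FPKM to 21.5, 21.6 and 21.1 FPKM (-0.51 ± 0.07, adjusted p = 5.12e-05). Gla, alpha-galactosidase, rose from 18.2, 19.2 and 18.7 FPKM to 24.6, 26.6 and 26.2 FPKM (0.44 ± 0.09, adjusted p = 0.00567). Ctsd, the protease cathepsin D, read 538, 564 and 531 FPKM at day 3 and 666, 606 and 639 FPKM at day 4 (0.23 ± 0.06, adjusted p = 0.0201), a call lost in 4 of 6 single-library omissions. Lamp1, the main lysosomal membrane glycoprotein, ranged from 463 to 511 FPKM at day 3 and from 534 to 619 FPKM at day 4 and was not called (adjusted p = 0.172). Tfeb, a regulator of lysosomal genes, read 7.50, 7.07 and 8.44 FPKM at day 3 and 7.08, 8.24 and 4.95 FPKM at day 4 and was not called. Of the vacuolar ATPase genes, 17 of 18 had positive changes, with a median of 0.20, and Atp6v1d rose by 0.49 ± 0.09 (adjusted p = 0.00126).

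Mki67, a marker of cycling cells, read 2.22, 2.32 and 2.69 FPKM at day 3 and 2.07, 5.05 and 1.66 FPKM at day 4, against 52.3 ± 10.7 FPKM (SD, n = 3) in unstarved cells. Day 4 replicate 2 stood above the other 5 libraries. None of 41 mitosis genes and 1 of 49 replication genes (2.04%), Cdt1 (-0.59), were called, the second share being near the 1.72% of all genes called lower. The call of Cdt1 was lost in 13 of 20 alternatives. Fam64a, known from mitosis and cycling cells but outside these lists, was called higher (0.75). Gtse1 (0.48) and Mis18a (0.78), also outside the lists, were called higher as well. The mitosis list had positive changes for 38 of 41 genes and a median of 0.18, but the median was -0.15 without day 4 replicate 2. Ccnd1, cyclin D1, read 172, 180 and 182 FPKM at day 3 and 216, 271 and 256 FPKM at day 4, a rise of 0.47 ± 0.10 (adjusted p = 0.00609). Its call was lost without replicate 2 or replicate 3 in every group and with the spread taken from the 6 libraries alone. The inhibitors Cdkn1a (0.07) and Cdkn1b (0.19) were not called. Acta2, smooth muscle actin, was at 6609 ± 670 FPKM at day 3 and 6406 ± 272 at day 4 and was not called.

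The following 3 large housekeeping lists are given by their counts, beside 1.67% of all genes called higher and 1.72% lower. Proteasome genes had positive changes for 33 of 34, a median of 0.15 and 0 calls. Respiratory chain genes had positive changes for 47 of 49, a median of 0.19 and 2 higher calls (4.08%), Ndufs8 and Ndufb9. Cytosolic ribosomal protein genes had negative changes for 58 of 71, a median of -0.10 and 0 calls, but 4 were called lower without day 3 replicate 1, 9 without replicate 1 in every group, and 6 to 8 under 4 other scalings. The higher count of the respiratory chain was 0 without day 3 replicate 2 or day 4 replicate 1 and 1 without day 3 replicate 1, day 3 replicate 3 or day 4 replicate 3. The medians leaned on replicate 1 as well. Without it in every group they were 0.091 for the proteasome, 0.095 for the respiratory chain and -0.21 for the ribosomal proteins. Relative to the day 3 mean, the respiratory chain list stood at -0.16, 0.09 and 0.07 in day 3 replicates 1, 2 and 3.

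The step was next compared with its neighbors in time. Against the step from day 2 to day 3, the other interval of 1 day, 285 genes differed (3.19%), with a difference above 0 for 135 (1.51%) and below 0 for 150 (1.68%). Rescaling to equal sums gave 76 and 176, and leaving out short RNA genes 82 and 236, with the median of all genes at -0.11 in the second. Without day 3 replicate 1 the counts were 57 and 97, without day 3 replicate 2 88 and 83, and without day 3 replicate 3 70 and 66. Of the 149 genes higher at day 4, 29 were among the 135, and of the 154 lower genes, 22 were among the 150. Most of the largest differences belonged to genes that moved from day 2 to day 3 and then stopped. Jun, a component of AP-1, averaged 53.1 ± 4.15 FPKM on day 2, 17.8 ± 0.728 on day 3 and 18.5 ± 1.43 on day 4 (difference of steps 1.57, adjusted p = 5.05e-06). Bhlhe40 reversed: its mean dropped from 16.3 ± 2.32 FPKM on day 2 to 6.58 ± 0.636 on day 3, then rose to 10.8 ± 0.928 on day 4. Myh1, a fast myosin heavy chain, averaged 30.4 ± 7.81 FPKM on day 2, 139 ± 10.8 on day 3 and 123 ± 13 on day 4. Of 21 smooth muscle actin and SRF target genes, 8 had a negative difference of steps, with a list median of -0.53, and Acta2 was one of them (-0.98, adjusted p = 0.00918).

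Against the line between days 3 and 6, 141 genes lay off at day 4 (1.58%), 83 above (0.928%) and 58 below (0.649%). The balance depended on scaling: 38 above and 90 below after rescaling to equal sums, 57 and 107 with short RNA genes left out, 73 and 110 with the upper quartile and 94 and 129 with quantile normalization. Libraries mattered here as well: without day 4 replicate 1 the counts were 31 and 30, without day 4 replicate 3 43 and 21, without day 3 replicate 1 48 above, and without day 3 replicate 2 48 and 29. Among genes above the line were 9 of 16 glycolytic genes, which had thus covered more of the way to day 6 than a straight line gives. Car3, a cytosolic carbonic anhydrase, lay farthest below by the naming rule, at 16.1, 19.2 and 21.9 FPKM at day 3, 10.9, 10.8 and 10.6 FPKM at day 4 and 33.0 ± 3.97 FPKM at day 6 (-1.01, adjusted p = 7.69e-05). The 4 farthest above are known from mitosis and cycling cells, Knstrn, Fam64a, Ccnb2 and Ndc80. Of these, Fam64a was also called higher at day 4 than at day 3. Knstrn read 5.45, 11.4 and 5.99 FPKM at day 4 against 4.13 ± 0.114 at day 3 and 1.32 ± 0.545 at day 6 (1.08, adjusted p = 0.00245), so day 4 replicate 2 was again the highest. The calls of Ccnb2 and Ndc80 were lost without day 4 replicate 2.

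The libraries of days 2 and 6 flank the step and did not enter its means, although they share the pooled estimate of spread with it. Between them 2702 genes were called (30.2%), of which 1317 were higher at day 6 (14.7%) and 1385 lower (15.5%), or 1967 and 929 after rescaling to equal sums and 2008 and 1018 with short RNA genes left out, where the median of all genes was 0.12 and 0.11. Of the 149 genes higher at day 4 than day 3, 114 were also higher at day 6 than day 2 (76.5%), 4 were lower and 31 were not called. Those 114 were 8.66% of the genes higher at day 6. Of the 154 lower genes, 134 were also lower (87.0%), 5 were higher and 15 were not called, and the 134 were 9.68% of the genes lower at day 6. The median change from day 2 to day 6 was 0.73 for the 149 and -0.90 for the 154. The genes that went the other way were Anxa2, Fdps, Mis18a and Nqo1 among the higher and Car3, Cep85l, Creld2, Hsp90b1 and Nr4a3 among the lower, chosen for naming after their values were seen. By list, from day 2 to day 6, 11 of 16 glycolytic genes were called higher and 2 lower. Of 21 hypoxia-inducible genes 17 were higher and 0 lower, and of 10 collagens 1 was higher and 8 lower. Of 24 ER genes 10 were higher and 2 lower, and of 23 ATF4 genes 7 were higher and 9 lower.

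**Figure D5:**
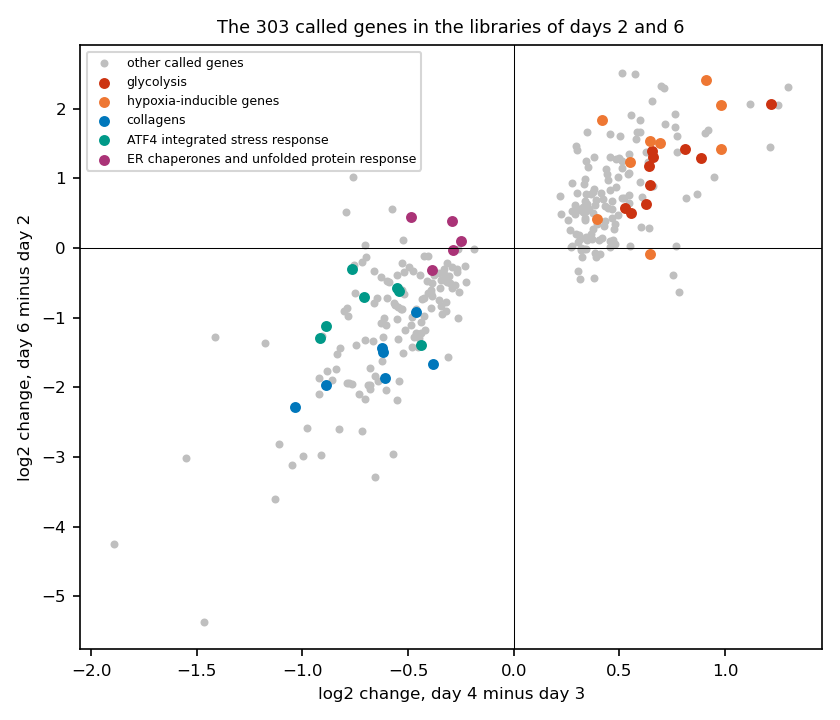
Log2 change from day 2 to day 6 (vertical axis) against that from day 3 to day 4 (horizontal axis) for the 303 called genes, with members of 5 lists in color and the others in grey. Most points lie at the lower left and the upper right, and Hsp90b1, Creld2 and Calr of the ER list lie at the upper left.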

How the data were processed

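RNA sequencing was done on total RNA from the REF line, with an RNA quality number of at least 7.5 per the labels. Per the submitters' processing notes, TopHat2 2.1.1, Cufflinks and Cuffnorm 2.2.1 were used on the rn6 build. The annotation, the scaling across libraries and any filter are not given in the sources used here. The authors deposited FPKM per gene symbol and the table holds no counts, so depth and counting error stay unknown.

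From these values limma 3.58.1 in R 4.3.3 was fitted to log2(FPKM + 1) of the 30 libraries, with 10 group means, no replicate block and a mean-variance trend. Genes needed a mean of at least 1 FPKM. Tests were two-sided, adjusted over all 8940 genes, with a threshold of 0.05. Folds are powers of the log2(FPKM + 1) differences and therefore understate the change of low genes. In simulated data with 200 of 8940 genes changed, this fit called 52% of changes of 0.5 and 95% of changes of 1 (log2) for day 4 against day 3. Of the calls, 7.14% and 5% were false. Noise was drawn independently for each gene and library. The simulation thus lacked the spread that genes share in these data, such as that of replicate 1.

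Named genes were the 10 largest called rises and 10 largest called falls whose mean reached 5 FPKM and whose days did not overlap, the 4 largest in each direction for the differences from the neighboring steps, the 4 list members with the smallest p, and 11 set genes. Short RNA genes and placeholder symbols were left out. Other list members are named to complete a list's count. The values of 1 list member are not reported here. The comparison, the lists and these rules were chosen with earlier results of these data known. Lists are described by counts and medians, with no set test. Promoter stretches are from RefSeq on GRCr8, matched by symbol, and were read without using the rn6 build. Deviations of same-numbered libraries of days 3 and 4 correlated at 0.219, 0.0683 and 0.00844, and the main fit did not pair them by number. These values do not exclude a shared structure by number. Replicate 1 stood apart in all 10 groups on the first component of the deviations, which held 28.7% of their variance. A replicate block gave 286 higher and 260 lower genes. Alternatives varied the pseudocount, the filter on low values, the scaling, the weights, the fit and the libraries left out.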

Additional observations from a re-analysis of the deposited data

Results flagged for a closer look

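For 8 genes the step from day 3 to day 4 differed from the step from day 2 to day 3 by a test of the difference itself, and these were the 4 largest in each direction by the naming rule. Lpcat2, an acyltransferase of phospholipids, had a difference of 2.28 (log2, adjusted p = 2.34e-05 in limma), with means of 13.8 FPKM at day 2, 2.52 at day 3 and 3.13 at day 4. The transcriptional repressor Bhlhe40 had a difference of 1.83 (adjusted p = 2.82e-07). Dusp10, a phosphatase of stress-activated kinases, had a difference of 1.70 (adjusted p = 1.26e-05), with means of 13.3, 3.87 and 4.4 FPKM. Jun had a difference of 1.57 (adjusted p = 5.05e-06). Of these 4 genes, Bhlhe40 was the one called between day 3 and day 4.

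In the other direction, Lce1m had a difference of -2.65 (adjusted p = 0.00465), with a mean of 6.25 FPKM at day 2, 76.7, 82.5 and 77.6 FPKM at day 3 and 192, 94.3 and 155 FPKM at day 4. Its call was lost with a pseudocount of 0.1 and without replicate 2 or replicate 3 in every group. Rasl11b, a small GTPase, had a difference of -2.37 (adjusted p = 1.82e-08), with means of 6.60, 31.1 and 25.4 FPKM. Myh1 had a difference of -2.37 (adjusted p = 2.86e-06). Pln, the calcium pump regulator phospholamban, had a difference of -1.97 (adjusted p = 2.86e-06), with means of 4.68, 24.8 and 29.1 FPKM. None of these 4 genes was called between day 3 and day 4. The other 7 genes of the 8, Lce1m excepted, kept their calls in all 24 alternatives.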

How the results depend on the processing

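No call of a named gene reversed: of 102 such calls, 29 held in every alternative and 73 were lost in at least 1. Counts are given as higher and lower (or above and below) genes. With 1 library left out, day 4 against day 3 gave 83 to 176 and 77 to 138. The ranges that follow also cover fits without 1 replicate number in every group. Day 4 against day 3 gave 33 to 176 and 35 to 153, and the difference of steps 30 to 154 and 36 to 154. Day 4 against the line gave 2 to 112 and 2 to 56, and day 6 against day 2 734 to 1215 and 887 to 1298. With the spread from the compared groups alone, the first 3 gave 31 and 38, 34 and 42, and 4 and 6. Quantile normalization gave 237 lower genes for day 4 against day 3, 233 for the difference of steps and 129 below the line. Rescaling to equal sums gave 76 genes above 0 for the difference of steps, and 38 and 90 for the line. Leaving out short RNA genes gave 82 and 236 for the difference of steps, 107 below the line and 2008 higher for day 6 against day 2. Upper-quartile scaling gave 110 below the line, and array weights 216 above 0 for the difference of steps. The cause of these shifts was not tested, apart from fits with fewer libraries. A replicate block gave 286 and 260 for day 4 against day 3, 280 and 303 for the difference of steps, and 206 and 134 for the line, and with the compared groups alone 42 and 50 for the first and 17 and 16 for the line. Of the same-numbered pairs, only replicate 1 matched its own number best, a hint from the data and not the design. Depth is unknown, so low genes carry an unmeasured counting error.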

Other observations

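Some called genes outside the lists were picked after their values were seen. Creb3l1, a membrane-bound transcription factor known to induce collagen and secretory genes, read 24.0, 26.3 and 20.7 FPKM at day 3 and 13.7, 14.9 and 11.9 FPKM at day 4 (log2 -0.77 ± 0.14, SE, adjusted p = 0.00111 in limma). Pdia5, a disulfide isomerase, fell from 12.8, 13.3 and 13 FPKM to 7.53, 7.71 and 7.66 FPKM (-0.70 ± 0.12, adjusted p = 0.000873). Fkbp10, a prolyl isomerase that binds procollagen, fell by 0.38 (adjusted p = 0.0014). Serpinh1, the collagen chaperone HSP47, had a change of -0.17 and was not called (adjusted p = 0.319).

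The BMP antagonists Chrd and Fst fell, Chrd from 16.9, 20.5 and 18.3 FPKM to 11.2, 10.1 and 10.7 FPKM (-0.74 ± 0.11, adjusted p = 7.44e-05). Fst, follistatin, fell from 58.7, 67.4 and 50.3 FPKM to 28.7, 33.0 and 36.3 FPKM (-0.83 ± 0.16, adjusted p = 0.0027). Bmper, a BMP-binding protein, rose from 51.3, 49.0 and 57.4 FPKM to 74.6, 72.6 and 89.5 FPKM (0.57 ± 0.12, adjusted p = 0.00358). Hbegf, a ligand of the epidermal growth factor receptor, rose from 54.1, 45 and 56.0 FPKM to 88.4, 73.7 and 93.6 FPKM (0.71 ± 0.09, adjusted p = 2.25e-05), and the ligand Tgfa rose by 0.51 ± 0.10 (adjusted p = 0.0036). Shmt1, the cytosolic serine hydroxymethyltransferase, rose from 16.0, 17.0 and 16.2 FPKM to 29.5, 28.2 and 27.9 FPKM (0.76 ± 0.10, adjusted p = 1.55e-05), while its mitochondrial counterpart Shmt2 had a change of -0.13 and was not called (adjusted p = 0.667). That the changes of Shmt1 and Shmt2 differ was not tested.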
